A study of Homo sapiens with 9 samples.

Results

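The genes of the desmosome were followed across PC3 cells and LNCaP cells kept with or without androgen. The members were chosen by symbol, and all 10 (PKP1, PKP2, PKP3, DSP, JUP, DSG2, DSG3, DSC2, DSC3 and PERP) were found among the 28216 genes of the deposited table. Both are established human lines grown from prostate cancer metastases. The 3 PC3 libraries came from untreated cells in F12K medium with 10% FBS. LNCaP cells (clone FCG) spent 24 h in RPMI medium without phenol red and with charcoal-stripped FBS (10%), and then 48 h with 10 nM androgen (3 libraries) or with vehicle, 0.01% ethanol (3 libraries). The sample labels name the androgen as DHT, whereas the main text of the study names R1881. In the labels, all libraries carry the genotype WT and the cell type epithelial. Each line was kept in its own medium and serum, which both LNCaP groups shared. Cell line and medium therefore cannot be told apart between PC3 and LNCaP cells. The labels do not say that libraries of a group came from separate cultures, and p-values therefore measure only the spread between these libraries.

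Desmosomes are junctions that tie the intermediate filaments of neighbouring epithelial or heart muscle cells together. Desmogleins (DSG) and desmocollins (DSC) are cadherins that reach across the gap between the cells. Their tails bind plakoglobin (JUP) and plakophilins (PKP), and desmoplakin (DSP) links these armadillo proteins to keratin or desmin filaments. In glandular epithelium such as prostate, DSG2 and DSC2 are the usual cadherins, whereas DSG3, DSC3 and PKP1 are best known from stratified epithelium such as skin.

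PolyA RNA was sequenced, and a library had 17397706 to 25640325 counts on genes. Levels of a gene are given as CPM (counts relative to the TMM-scaled size of the library, with factors over all 9 libraries), and levels of different genes are set side by side only as CPM per kb of transcript. The summed level of 6 epithelial markers (EPCAM, CDH1, KRT8, KRT18, CLDN4 and CLDN7) lay between 651 and 744 CPM in PC3, between 4233 and 4255 CPM in androgen-treated and between 1592 and 1651 CPM in vehicle-treated LNCaP libraries. All 6 genes had counts in each group, but they did not all follow the sum. CLDN4 had means of 222 CPM in PC3, 241 CPM with androgen and 145 CPM with vehicle, and EPCAM had 32.4, 114 and 123 CPM. CLDN7, which did follow it, had 4.04, 392 and 213 CPM. The 6 luminal prostate markers summed to 41.6 to 61.2 CPM in PC3 libraries, where KLK2 was at 0, and to at least 2987 CPM in every LNCaP library. Of 4 basal markers, KRT15 had a mean of 27.2 CPM in PC3 cells, whereas TP63, KRT5 and KRT14 were at most 1.08 CPM in every library. The 4 leukocyte markers summed to 32.8 to 34.6 CPM in PC3, 15.8 to 23.2 CPM in androgen-treated and 1.71 to 2.30 CPM in vehicle-treated libraries. Nearly all of it was CD68, with CD3E at 0 throughout and PTPRC at 0 in LNCaP cells. The counts of CD68 are uncertain, since 73.7% of the 74-nt stretches of its transcripts also occur elsewhere. The 3 endothelial markers summed to 1.91 to 3.38, 6.84 to 7.89 and 16 to 17.9 CPM in the same order of groups, mostly PECAM1 in PC3 and VWF in LNCaP cells, with CDH5 at 0 throughout. The 6 fibroblast markers summed to 37.4 to 49.95, 13.0 to 15.4 and 22.9 to 25.9 CPM, mostly COL1A1. The part of such cells or RNA in the results was not tested. In bulk RNA, fewer cells of a type and less RNA per cell cannot be told apart.

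PC3 and LNCaP cells differed in the levels of the desmosome genes, and 8 of the 10 members had over 100 counts in every library of both lines. PKP1, PKP2 and DSC3 were higher in PC3 cells than in both LNCaP groups, and DSP, JUP, DSG2, DSC2 and PKP3 were lower. PERP was lower in PC3 cells than in androgen-treated LNCaP cells, and the difference from vehicle-treated cells stayed under 2-fold. PKP1 had a mean of 981 ± 363 CPM in PC3 cells (SD, n = 3) against 2.75 ± 2.42 CPM in androgen-treated and 1.02 ± 0.934 CPM in vehicle-treated LNCaP cells. DSG3 was not detected beyond 1 count in any library. Within LNCaP cells, no tested member differed by 2-fold or more between androgen and vehicle.

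A gene was called when edgeR's quasi-likelihood F test gave a Benjamini-Hochberg adjusted p-value under 0.05 over all genes tested and the fold change was at least 2. Between PC3 and androgen-treated LNCaP cells, 9 of the 10 members passed the filter of more than 3 CPM in at least 3 libraries. Of these, 3 were called higher in PC3 cells, where 24.0% of all 12541 genes were called higher, and 6 were called lower, where 22.1% of all genes were. The members had a median log2 difference of -1.23, and all genes tested a median of 0.04. Between PC3 and vehicle-treated LNCaP cells, 3 of 9 members were called higher against 22.2% of 12686 genes, and 5 were called lower against 21.0%. The median was -1.07 over the members and 0.03 over all genes. PC3 libraries enter both comparisons, which are therefore not independent of each other. PKP1 passed the filter through its PC3 level alone and so had to differ.

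**Figure D1:**
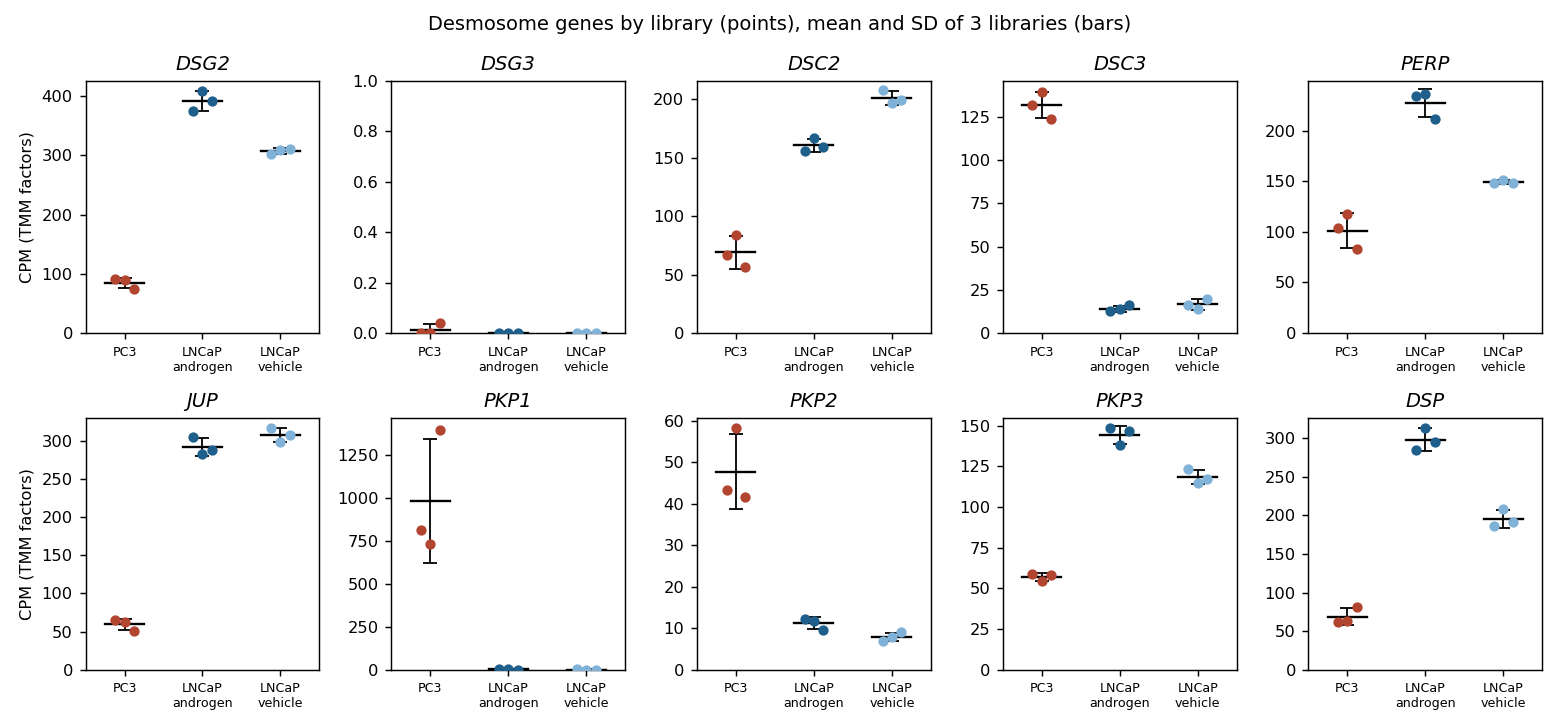
Level of each of the 10 desmosome genes in CPM (vertical axis, from 0, a scale of its own for each gene) in the 3 libraries of each group. Points are libraries, and bars are the mean and SD (n = 3). PKP1, PKP2 and DSC3 are highest in PC3 libraries, the other members apart from DSG3 are lowest there, and DSG3 is at 0 or at 1 count.

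The starts of 6 members are shown as DNA, taken from RefSeq on GRCh38.p14, to set genes that were lower in PC3 cells (DSP, DSG2, JUP and PERP) beside genes that were higher (PKP1 and DSC3). They were chosen after the values and the letters in the windows were seen. Each stretch holds 250 bases before and 50 bases from the annotated start, written 5′ to 3′ along the strand of the gene. Capitals mark CAGGTG or its reverse complement CACCTG, an E-box. It occurs 2 times in the windows of DSP, DSG2 and JUP shown here and not in those of PERP, PKP1 and DSC3. The windows are DSP on the plus strand (chr6:7541421-7541720), DSG2 on the plus strand (chr18:31497927-31498226), the downstream of the JUP starts on the minus strand (chr17:41785927-41786226), PERP on the minus strand (chr6:138107370-138107669), PKP1 on the plus strand (chr1:201283256-201283555) and DSC3 on the minus strand (chr18:31042693-31042992).
DSP: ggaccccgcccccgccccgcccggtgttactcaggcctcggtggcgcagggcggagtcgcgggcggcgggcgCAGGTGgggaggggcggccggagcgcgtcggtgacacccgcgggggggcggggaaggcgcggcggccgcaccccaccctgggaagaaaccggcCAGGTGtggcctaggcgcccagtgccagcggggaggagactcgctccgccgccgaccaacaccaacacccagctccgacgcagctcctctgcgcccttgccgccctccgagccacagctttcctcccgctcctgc
DSG2: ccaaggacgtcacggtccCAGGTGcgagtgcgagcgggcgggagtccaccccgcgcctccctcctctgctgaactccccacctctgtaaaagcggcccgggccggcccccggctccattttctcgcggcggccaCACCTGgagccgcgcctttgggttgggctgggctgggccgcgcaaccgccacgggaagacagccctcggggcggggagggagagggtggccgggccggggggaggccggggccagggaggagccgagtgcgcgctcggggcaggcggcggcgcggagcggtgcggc
JUP: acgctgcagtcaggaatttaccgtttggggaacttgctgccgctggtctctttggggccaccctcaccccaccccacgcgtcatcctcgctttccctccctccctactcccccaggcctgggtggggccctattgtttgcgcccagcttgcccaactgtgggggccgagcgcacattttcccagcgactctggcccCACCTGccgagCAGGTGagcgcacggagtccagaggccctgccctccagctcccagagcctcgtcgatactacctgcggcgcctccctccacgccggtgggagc
PERP: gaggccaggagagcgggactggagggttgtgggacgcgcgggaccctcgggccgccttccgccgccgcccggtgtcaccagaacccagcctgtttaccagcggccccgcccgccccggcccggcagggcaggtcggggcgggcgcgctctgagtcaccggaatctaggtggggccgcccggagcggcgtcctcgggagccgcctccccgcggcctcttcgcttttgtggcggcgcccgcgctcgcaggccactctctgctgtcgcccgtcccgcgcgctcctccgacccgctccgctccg
PKP1: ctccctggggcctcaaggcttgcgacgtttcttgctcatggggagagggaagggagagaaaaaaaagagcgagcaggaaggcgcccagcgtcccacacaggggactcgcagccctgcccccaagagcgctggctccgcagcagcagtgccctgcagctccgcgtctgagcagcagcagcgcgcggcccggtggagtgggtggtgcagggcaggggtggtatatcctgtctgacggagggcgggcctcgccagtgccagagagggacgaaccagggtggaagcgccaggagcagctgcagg
DSC3: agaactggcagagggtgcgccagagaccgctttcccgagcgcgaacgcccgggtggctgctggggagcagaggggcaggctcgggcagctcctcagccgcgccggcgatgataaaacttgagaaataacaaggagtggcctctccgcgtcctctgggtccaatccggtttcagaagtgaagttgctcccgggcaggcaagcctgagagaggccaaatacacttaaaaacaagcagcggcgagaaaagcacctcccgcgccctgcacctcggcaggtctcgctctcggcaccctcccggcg

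A start window was found for 8 of the 10 members, and JUP and DSC2 had 2 windows each. CAGGTG on either strand occurred in the windows of DSP and DSG2, in the downstream window of JUP and, 1 time, in the upstream window of DSC2. It did not occur in the other window of JUP or of DSC2, nor in the windows of PKP1, DSC3, PERP and DSG3, and so was present in some members lower in PC3 cells and not in others. Of all 35116 promoter windows of the same length, 20.6% held it. The hexamer AGAACA of the androgen response element, searched on both strands, was found in 0 of the member windows and in 14.8% of all promoters. These are matches of letters in short windows and say nothing about binding.

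The genes of the desmosomal cadherins lie side by side on chromosome 18. In GENCODE 44 the cluster spans 560 kb of GRCh38 and holds 7 genes in the order DSC3, DSC2, DSC1, DSG1, DSG4, DSG3 and DSG2. DSC3 (chr18:30989365-31042815, minus strand) and its neighbour DSC2 (chr18:31058840-31102522, minus strand) stand at one end, and DSG2 (chr18:31498177-31549008, plus strand) stands at the other. Between them, DSC1 had 3 to 41 counts per library, DSG1 at most 2, and DSG4 and DSG3 at most 1. In all 9 libraries the counts of the cluster thus came almost entirely from its ends.

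DSG2, the desmoglein found in all desmosome-bearing tissues, was the most abundant desmosomal cadherin of LNCaP cells per kb of transcript. It measured 90.6, 88.9 and 73.9 CPM in PC3 libraries, 374, 408 and 392 CPM in androgen-treated libraries and 302, 309 and 310 CPM in vehicle-treated libraries. The PC3 libraries lay far below both LNCaP groups, and the androgen-treated libraries lay above all vehicle-treated ones. PC3 cells had 4.68-fold less than androgen-treated cells (log2 -2.23, SE 0.09, adjusted p = 2.37e-07) and 3.69-fold less than vehicle-treated cells (log2 -1.89, SE 0.09, adjusted p = 4.09e-07). An antisense gene, DSG2-AS1, overlaps DSG2, and at most 0.351% of the reads on DSG2 came from the opposite strand.

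DSC2, the desmocollin of simple epithelium, was also lower in PC3 cells. Its level was 67.1, 84.2 and 56.2 CPM in PC3 libraries, 156, 167 and 159 CPM with androgen and 208, 197 and 199 CPM with vehicle. The groups did not overlap, and here the vehicle-treated libraries were the highest. The difference from PC3 cells was 2.34-fold with androgen (log2 -1.23, SE 0.13, adjusted p = 5.14e-05) and 2.96-fold with vehicle (log2 -1.56, SE 0.13, adjusted p = 1.27e-05).

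DSC3, a desmocollin of stratified epithelium, went the other way. PC3 libraries had 132, 139 and 124 CPM, and LNCaP libraries had 12.6, 13.7 and 16 CPM with androgen and 16.3, 13.7 and 19.6 CPM with vehicle. Every PC3 library was far above every LNCaP library, and the LNCaP groups overlapped. DSC3 was 9.25-fold higher in PC3 than in androgen-treated cells (log2 3.21, SE 0.10, adjusted p = 6.95e-08) and 7.85-fold higher than in vehicle-treated cells (log2 2.97, SE 0.13, adjusted p = 3.02e-07). Adjacent genes of the cluster thus differed between the lines in opposite directions. As a share of the counts per kb on DSC2 and DSC3 together, DSC3 made up 75.8% ± 2.67 in PC3, 12.5% ± 1.35 in androgen-treated and 11.8% ± 1.86 in vehicle-treated cells (SD, n = 3). The shares of PC3 and LNCaP libraries did not overlap. An exact two-sided permutation test gave p = 0.1 for PC3 against either LNCaP group, which is the smallest p that 3 against 3 libraries allow (0.2 after adjustment over 12 share tests).

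DSG3, the desmoglein of basal skin layers, had 1 count in 1 PC3 library and 0 in the other 8 libraries. A count of 0 allows 3 counts, which corresponded to 0.117 to 0.172 CPM in these libraries. DSG3 was not tested in any comparison, and no fold is given.

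PERP, a small membrane protein of desmosomes with 4 membrane-spanning stretches, showed the smallest differences between the lines among the tested members. It measured 104, 117 and 82.6 CPM in PC3 libraries, 235, 236 and 212 CPM in androgen-treated and 148, 151 and 148 CPM in vehicle-treated LNCaP libraries. The groups did not overlap, with PC3 lowest and androgen-treated LNCaP highest. PC3 cells had 2.27-fold less than androgen-treated cells (log2 -1.18, SE 0.12, adjusted p = 3.82e-05). Against vehicle-treated cells the difference was 1.5-fold (log2 -0.58, SE 0.12, adjusted p = 0.00196), below the 2-fold limit. PERP lies at chr6:138088505-138107419 on the minus strand.

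JUP encodes plakoglobin, which binds the tails of desmosomal cadherins and also of classical cadherins. JUP (chr17:41754604-41786931, minus strand) had the highest level per kb of all members in LNCaP cells, 83.2 ± 3.29 CPM per kb with androgen and 87.7 ± 2.56 with vehicle (SD, n = 3). The libraries gave 64.5, 63.0 and 51.0 CPM in PC3, 305, 283 and 288 CPM with androgen and 317, 299 and 307 CPM with vehicle. The PC3 libraries were the lowest and the LNCaP groups overlapped. PC3 cells had 4.95-fold less than androgen-treated (log2 -2.31, SE 0.10, adjusted p = 2.47e-07) and 5.25-fold less than vehicle-treated cells (log2 -2.39, SE 0.10, adjusted p = 2.10e-07), the lowest of the members' log2 values in both comparisons. In the former, DSG2 was within 1 SE of it.

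The plakophilins are armadillo proteins that gather desmoplakin and cadherins at the junction. Their genes lie on different chromosomes, PKP1 at chr1:201283452-201332993 on the plus strand, PKP2 at chr12:32790745-32896798 on the minus strand and PKP3 at chr11:392614-404908 on the plus strand. PKP1 and PKP2 were higher and PKP3 was lower in PC3 than in LNCaP cells. Of the 74-nt stretches of PKP2 transcripts, 5.39% also occur elsewhere in the genome, and for PKP1 and PKP3 none do.

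PKP1, the plakophilin of stratified epithelium, had 20405, 16304 and 35506 counts in PC3 libraries, which corresponded to 814, 733 and 1397 CPM. In LNCaP cells it had 120, 28 and 27 counts with androgen (5.55, 1.37 and 1.34 CPM) and 39, 4 and 16 counts with vehicle (2.04, 0.213 and 0.794 CPM). The PC3 libraries were all far above the LNCaP libraries and varied widely among themselves, with replicate 3 at 142% of the group mean. PKP1 was higher in PC3 than in androgen-treated cells by 8.45 on the log2 scale (SE 0.56, adjusted p = 2.72e-06) and than in vehicle-treated cells by 9.89 (SE 0.53, adjusted p = 9.86e-07). These values moved most when the LNCaP library with most PKP1 counts was left out. Without androgen replicate 1 the log2 difference was 9.48, and without vehicle replicate 1 it was 10.86.

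Traces of RNA from PC3 cells were looked for in the LNCaP libraries with 8 genes that are abundant in PC3 cells (VIM, CAV1, CD44, ITGA3, EPHA2, ANTXR2, FZD8 and MMP14). In the androgen-treated replicate 1, PKP1 was at 0.565% of its mean PC3 level and the summed markers at 0.990% of theirs, the highest value of each among the LNCaP libraries. In the other 5 LNCaP libraries PKP1 was at 0.0217% to 0.208% and the marker sum at 0.384% to 0.569% of the PC3 level. PKP1 was below the marker sum in all 6 libraries, and in 3 of them (androgen replicates 1 and 2 and vehicle replicate 1) it was also below each of the 8 markers. The part of such RNA in the PKP1 counts of LNCaP cells was not tested.

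**Figure D2:**
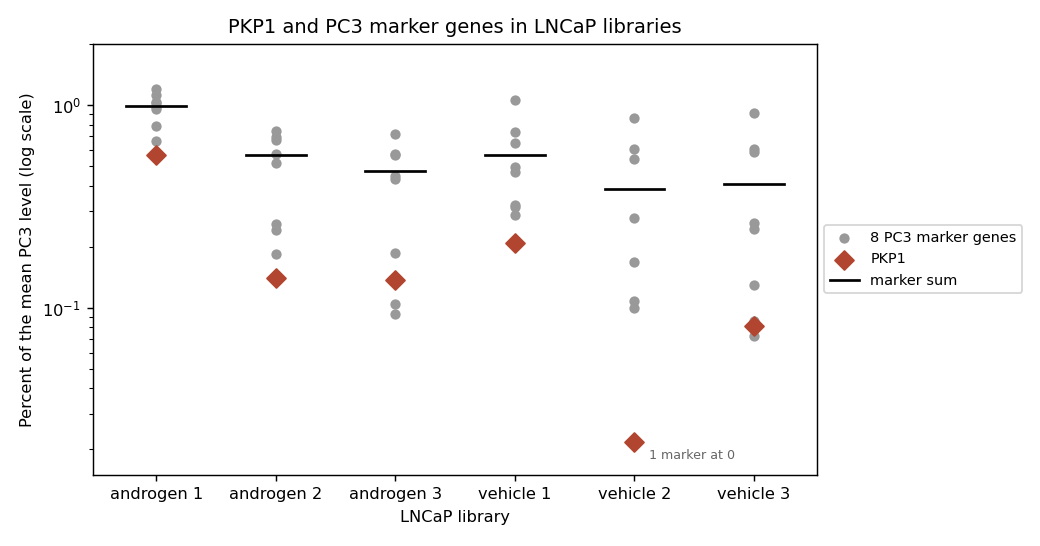
PKP1 (diamonds), 8 genes abundant in PC3 cells (grey points) and their sum (lines) in each of the 6 LNCaP libraries, as percent of the mean level in PC3 libraries, on a log scale. PKP1 lies below the marker sum in every library, and both are highest in androgen-treated replicate 1; a marker at 0 in vehicle-treated replicate 2 is not drawn.

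PKP2, known from simple epithelium and from the heart, held a small share of the plakophilin counts in each group. It measured 43.3, 58.2 and 41.7 CPM in PC3, 12.3, 11.7 and 9.54 CPM with androgen and 6.96, 7.84 and 8.98 CPM with vehicle. All PC3 libraries were above all LNCaP libraries. The difference was 4.23-fold from androgen-treated cells (log2 2.08, SE 0.16, adjusted p = 5.78e-06) and 5.91-fold from vehicle-treated cells (log2 2.56, SE 0.16, adjusted p = 2.36e-06).

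PKP3, a plakophilin of most epithelia, had 59.1, 54.4 and 58.0 CPM in PC3 libraries against 149, 138 and 147 CPM with androgen and 123, 115 and 117 CPM with vehicle. The groups did not overlap and each was narrow, with PC3 lowest. PC3 cells had 2.55-fold less than androgen-treated cells (log2 -1.35, SE 0.06, adjusted p = 4.05e-07) and 2.10-fold less than vehicle-treated cells (log2 -1.07, SE 0.06, adjusted p = 1.34e-06), the latter close to the 2-fold limit.

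The main plakophilin transcript therefore differed between the lines. Of the plakophilin counts per kb, PKP1 held 84.4% ± 4.65 in PC3 cells (SD, n = 3), with 83.0%, 80.6% and 89.6% in the libraries. In LNCaP cells PKP3 held 94.2% ± 1.18 with androgen and 95.3% ± 0.425 with vehicle, against 9.91% ± 2.5 in PC3 cells. PKP2 held 5.66% ± 2.35 in PC3, 4.85% ± 0.624 in androgen-treated and 4.26% ± 0.626 in vehicle-treated cells, and its shares overlapped between PC3 and both LNCaP groups. For PKP1 and PKP3 the shares of PC3 and LNCaP libraries did not overlap (exact two-sided permutation test, p = 0.1, the smallest possible, and 0.2 after adjustment), and for PKP2 the same exact test gave 0.7 and 0.5.

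**Figure D3:**
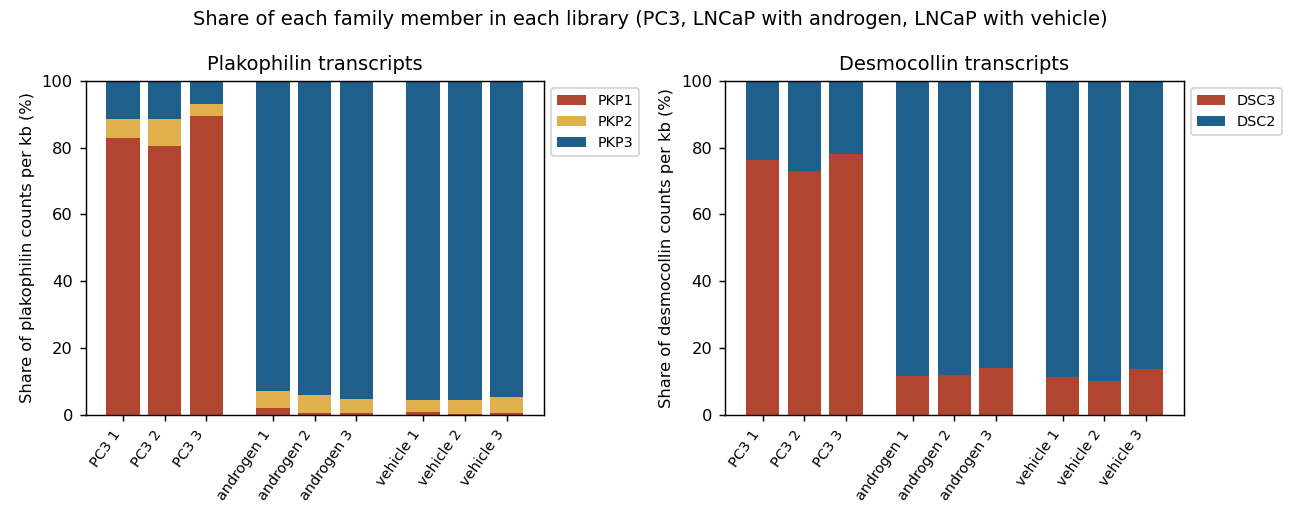
Share of each plakophilin (left) and of DSC2 and DSC3 (right) in the counts per kb of its family, in percent, in each of the 9 libraries. PKP1 and DSC3 fill most of the PC3 bars, with means of 84.4% and 75.8%, and PKP3 and DSC2 fill most of the LNCaP bars.

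DSP encodes desmoplakin, the plakin that anchors intermediate filaments at the plaque. DSP (chr6:7541338-7586714, plus strand) measured 61.5, 63.2 and 81.1 CPM in PC3 libraries, 285, 314 and 295 CPM with androgen and 186, 208 and 191 CPM with vehicle. The groups did not overlap, and androgen-treated LNCaP libraries were the highest. PC3 cells had 4.38-fold less than androgen-treated (log2 -2.13, SE 0.12, adjusted p = 9.41e-07) and 2.88-fold less than vehicle-treated cells (log2 -1.53, SE 0.12, adjusted p = 6.96e-06).

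Per kb of transcript, the order of the members differed between the lines. In PC3 cells PKP1 led with 184 ± 68.1 CPM per kb (SD, n = 3), followed by PERP with 24.1 ± 4.17, PKP3 with 20.3 ± 0.864, DSC3 with 17.4 ± 1.01, JUP with 17 ± 2.11, DSG2 with 14.8 ± 1.62 and PKP2 with 11.3 ± 2.15. DSP with 7.07 ± 1.12 and DSC2 with 5.61 ± 1.14 CPM per kb came last before DSG3. Neighbours in this order overlapped in their libraries, except PKP1 and PERP, PKP3 and DSC3, PKP2 and DSP, and DSC2 and DSG3. In androgen-treated LNCaP cells JUP was followed by DSG2 with 68.8 ± 2.98, PERP with 54.2 ± 3.24, PKP3 with 51.3 ± 1.98, DSP with 30.7 ± 1.48 and DSC2 with 13.0 ± 0.459 CPM per kb. Of these neighbours only PERP and PKP3 overlapped, and PKP2, DSC3 and PKP1 were each under 3 CPM per kb. Vehicle-treated cells had the order JUP, DSG2 (53.9 ± 0.775), PKP3 (42.0 ± 1.58), PERP (35.5 ± 0.435), DSP (20.1 ± 1.21) and DSC2 (16.3 ± 0.476 CPM per kb), with no overlap between neighbours. The length used is that of the canonical transcript, which may not be the form that these cells make.

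Summed over the 10 members, PC3 libraries had 302 ± 58.6 CPM per kb, androgen-treated 306 ± 4.18 and vehicle-treated LNCaP libraries 260 ± 2.65 (SD, n = 3). The PC3 libraries (272, 264 and 369 CPM per kb) lay on either side of the androgen-treated ones (301 to 309) and above the vehicle-treated ones (257 to 263). Without PKP1 the sum was 118 ± 9.84 CPM per kb in PC3 libraries, below every LNCaP library, and 306 ± 3.93 and 260 ± 2.47 in the LNCaP groups.

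**Figure D4:**
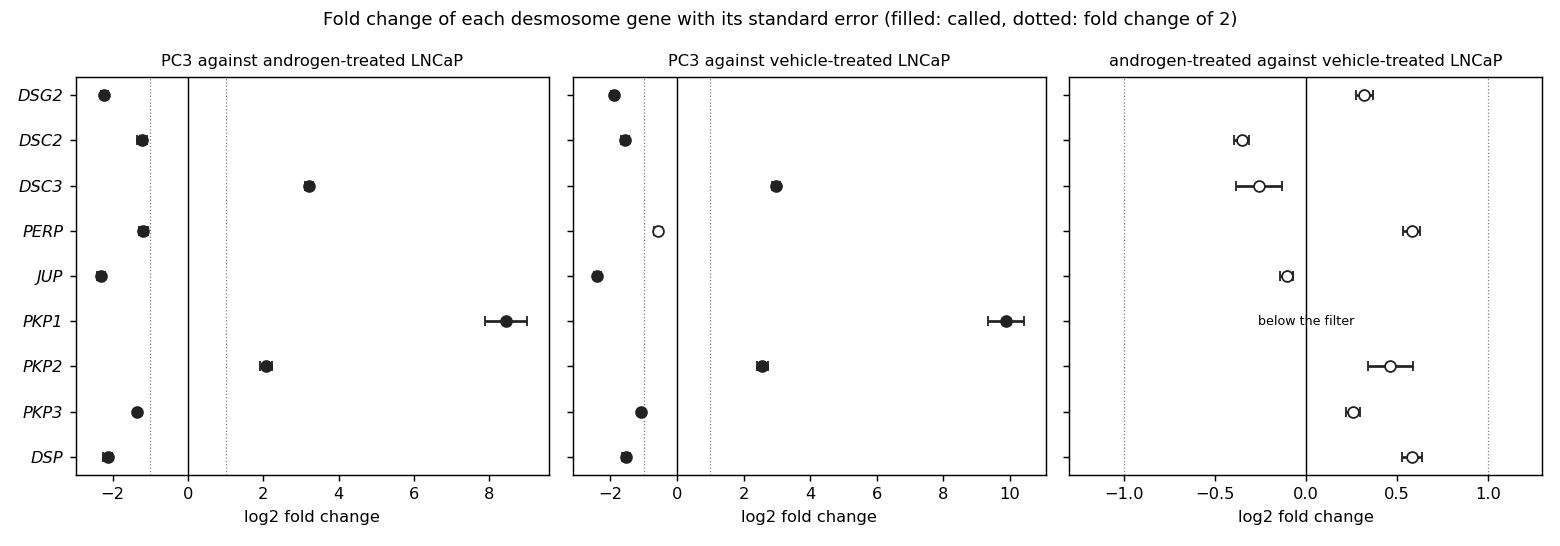
Difference of each tested desmosome gene on the log2 scale (horizontal axis, with a scale of its own for each comparison), with its standard error, in the 3 comparisons. Standard errors were derived from the F statistic. Filled points were called, open points were not, and dotted lines mark a fold change of 2. PKP1, PKP2 and DSC3 lie on the positive side in both comparisons with PC3 cells, and all 8 points for androgen lie between -0.35 and 0.58.

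Androgen treatment of LNCaP cells was compared with vehicle to ask which members responded to the hormone. PKP1 and DSG3 were below the filter, and 8 members were tested. None was called at a fold change of at least 2, also not with DESeq2 or edgeR's likelihood ratio test, whereas 6.54% of 11697 genes were called higher and 7.49% lower. At an unadjusted p-value under 0.05 there were 7 of the 8 members and 76.5% of all genes. By the adjusted p-value alone 5 members were higher with androgen, against 37.1% of all genes, and 2 were lower, against 37.8%. The androgen-treated libraries also enter the comparison with PC3 cells. The median log2 difference was 0.29 over the 8 members and -0.01 over all genes.

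DSP and PERP had the largest differences with androgen, both 1.5-fold and with every androgen-treated library above every vehicle-treated one. The log2 difference of DSP was 0.58 (SE 0.06, adjusted p = 6.40e-07) and that of PERP was 0.58 (SE 0.04, adjusted p = 7.85e-08). PKP2 was 1.38-fold higher (log2 0.46, SE 0.12, adjusted p = 0.00407), DSG2 1.25-fold (log2 0.32, SE 0.05, adjusted p = 2.56e-05) and PKP3 1.2-fold (log2 0.26, SE 0.04, adjusted p = 6.81e-05). For these members, too, the groups did not overlap. The cadherins DSG2 and DSC2 had opposite signs, since DSC2 was 1.28-fold lower with androgen (log2 -0.35, SE 0.04, adjusted p = 5.57e-06).

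Among the tested members, JUP and DSC3 were those whose libraries overlapped between androgen and vehicle. The share of all tested genes without overlap was not counted, so a lack of overlap only describes the members. Of all genes, 76.5% had an unadjusted p under 0.05 in the quasi-likelihood F test. For JUP the log2 difference was -0.11 (SE 0.04, adjusted p = 0.0185), and it was lower with androgen in 3 of 3 libraries of the same replicate number. The adjusted p ranged from 0.00541, with the replicate number as a block, to 0.227 over the alternatives. It was 0.0550 without androgen replicate 2, 0.0675 without vehicle replicate 1 and 0.0536 without vehicle replicate 3. For DSC3 the log2 difference was -0.26 (SE 0.13, adjusted p = 0.0811), and with the replicate number as a block it was -0.25 (adjusted p = 0.0136). Without androgen replicate 3 the adjusted p was 0.0264 and without vehicle replicate 2 it was 0.0155, with a range of 0.0136 to 0.428 over all alternatives. PKP1, at 1.34 to 5.55 CPM with androgen and 0.213 to 2.04 CPM with vehicle, overlapped between the groups and was higher with androgen in 3 of 3 libraries of the same replicate number. Without the filter its log2 difference was 1.43 (SE 0.47, adjusted p = 0.0128), and in a fit of all 9 libraries it was 1.42 (SE 0.81, adjusted p = 0.155). By replicate number, the summed 8 genes used to trace PC3 RNA were also higher with androgen. They were at 0.990%, 0.569% and 0.471% of their PC3 level with androgen and at 0.565%, 0.384% and 0.409% with vehicle. Single genes did not all do so, and EPHA2 was lower with androgen in replicates 2 and 3. The part of such RNA in the PKP1 difference was not tested.

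**Figure D5:**
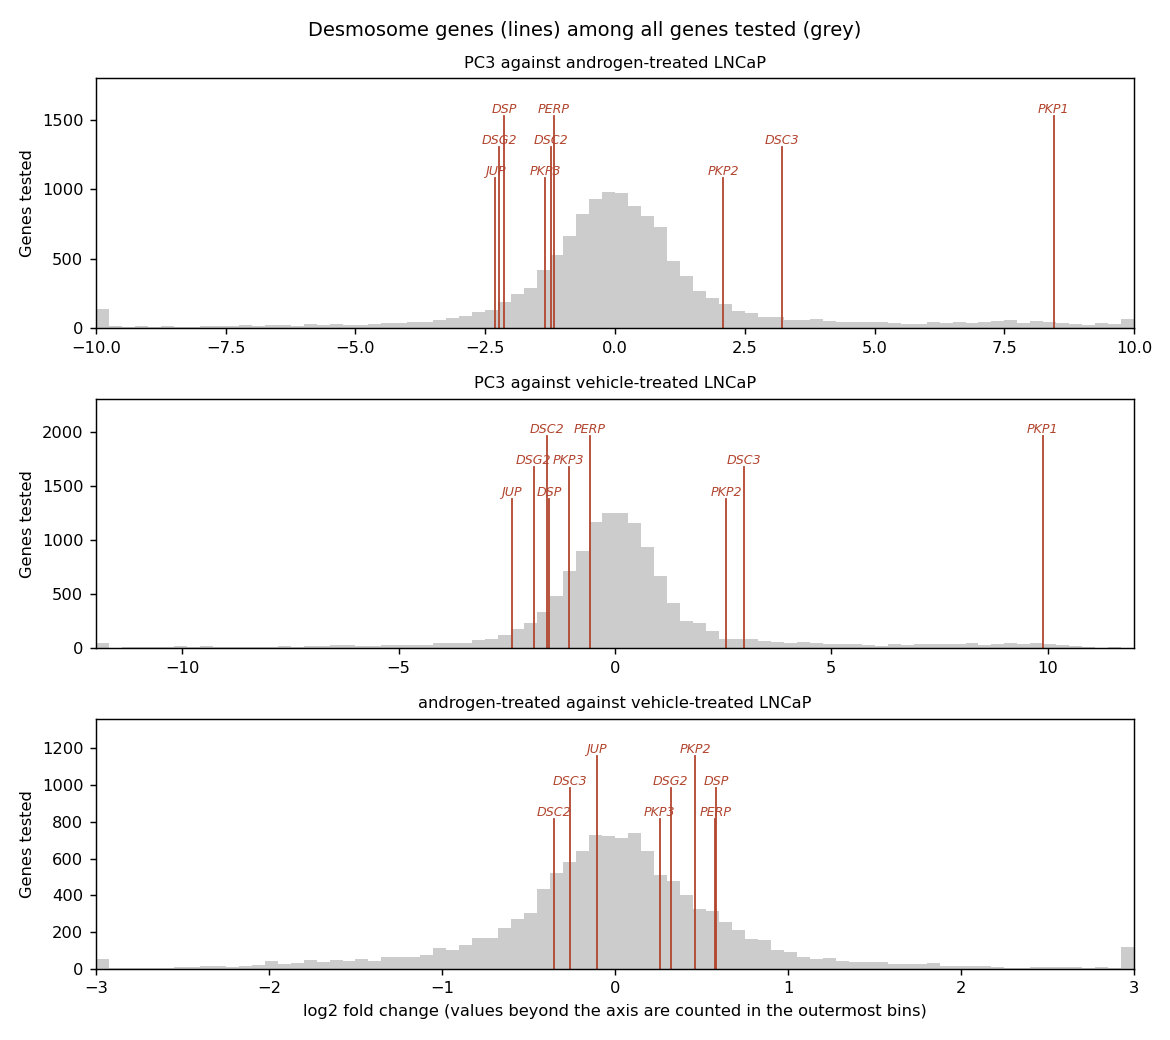
Number of genes tested (grey, vertical axis) by log2 difference (horizontal axis) in each of the 3 comparisons, with the tested desmosome genes as labelled lines; values beyond the axis are counted in the outermost bins. In the comparisons with PC3 cells PKP1, DSC3 and PKP2 stand on the positive side and the other tested members on the negative side. With androgen all 8 members stand within the bulk of genes.

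Other desmosome and cornified junction genes were counted from a list of 9 (DSG1, DSG4, DSC1, PKP4, CDSN, PPL, EVPL, EPPK1 and PNN), of which 5 were tested in each comparison. Between PC3 and androgen-treated cells 1 was called higher and 1 lower, between PC3 and vehicle-treated cells 1 higher and 2 lower, and between androgen and vehicle 0 higher and 1 lower. In the comparisons with PC3 cells 1 of 5 is near the share of all genes called, 24.0% higher and 22.1% lower against androgen and 22.2% and 21.0% against vehicle. The 2 of 5 called lower against vehicle are above that share. With androgen 6.54% of all genes were called higher and 7.49% lower. PPL, the periplakin of the cornified envelope, had means of 82.0 CPM in PC3, 18.2 CPM with androgen and 11 CPM with vehicle (log2 2.16 and 2.87 for PC3 against each). EPPK1, a keratin-binding plakin, had 0.881, 48.5 and 51.8 CPM (log2 -5.77 and -5.87). It passed the filter through the LNCaP libraries alone and so had to differ. PKP4, an armadillo relative of the plakophilins, was the list's called gene with androgen, at 44.1 CPM against 162 CPM with vehicle (log2 -1.90, SE 0.05, adjusted p = 1.53e-12). PC3 cells had 77.6 CPM of PKP4, between both LNCaP groups. The envoplakin gene EVPL and PNN were called in none of the 3 comparisons.

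The plakin family (PLEC, DST, MACF1, PPL, EVPL and EPPK1) links junctions and filaments as DSP does. Against androgen-treated cells 4 of 6 were called higher in PC3 cells and 1 lower, against vehicle-treated cells 3 and 1, where 24.0% and 22.1%, and 22.2% and 21.0%, of all genes were called. The 1 lower was EPPK1. With androgen 0 of 6 were called in either direction, where 6.54% of all genes were called higher and 7.49% lower. All 6 had an unadjusted p under 0.05, as did 76.5% of all genes. PLEC, a plakin of hemidesmosomes and of filament networks, had 1371 CPM in PC3 cells against 166 and 131 CPM in androgen- and vehicle-treated LNCaP cells (log2 3.03 and 3.36). DST, which holds keratin at hemidesmosomes in skin, had 129 CPM against 9.74 and 12.2 CPM (log2 3.72 and 3.38). The plakins PLEC and DST were thus higher in PC3 cells, where DSP was lower.

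Of 12 intermediate filament genes, 7 were tested in the comparisons with PC3 cells. In PC3 cells 5 were called higher and 2 lower against androgen-treated cells, and 5 and 1 against vehicle-treated cells. Of all genes, 24.0% were called higher and 22.1% lower against androgen, and 22.2% and 21.0% against vehicle. Of the filament genes called higher, 3 of 5 and 5 of 5 had a mean under 3 CPM in LNCaP cells. These passed the filter through PC3 cells alone and so had to differ. With androgen 4 were tested and called higher, where 6.54% of all genes were, and of these KRT19 and VIM had under 3 CPM with vehicle and had to differ. KRT8, the keratin of simple epithelium, had 130 CPM in PC3, 1608 CPM with androgen and 264 CPM with vehicle, and its partner KRT18 had 287, 1226 and 328 CPM. Their log2 differences with androgen were 2.58 (SE 0.04, adjusted p = 8.63e-14) and 1.88 (SE 0.05, adjusted p = 2.35e-12), against 0.58 for DSP. Their counts are less certain, since 10.8% of the 74-nt stretches of KRT8 and 14.6% of those of KRT18 also occur elsewhere. KRT19 was at 441 CPM in PC3 cells and at 15.5 and 1.79 CPM in LNCaP cells with androgen and vehicle, and VIM, of which 18.6% of stretches occur elsewhere, was at 1225, 8.28 and 2.25 CPM. Among androgen-treated libraries VIM, which is also among the 8 genes used to trace PC3 RNA, was highest in replicate 1 (12.6 CPM against 7.01 and 5.27).

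Among 12 partners at adherens junctions, 11 were tested against PC3 cells and 3 were called in each direction in both comparisons, which is near the share of all genes (24.0% higher and 22.1% lower against androgen, 22.2% and 21.0% against vehicle). In each comparison 2 of the 3 higher and 1 of the 3 lower had a mean under 3 CPM in the lower group and had to differ. With androgen 1 of 9 was called, VCL, which was higher, against 6.54% of all genes. CDH1, the classical cadherin of epithelium, had 11.4 CPM in PC3, 660 CPM with androgen and 540 CPM with vehicle (log2 -5.86 and -5.58 for PC3 against each). CTNNA1, which ties such cadherins to actin, had 4.06, 577 and 435 CPM (log2 -7.15 and -6.76). The differences of CDH1 and CTNNA1 were larger on the log2 scale than that of any desmosome member lower in PC3 cells, whose largest was -2.39 for JUP. The vinculin gene VCL had 832, 365 and 161 CPM.

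The list of 25 genes known to act on desmosome genes or proteins had 20 tested against PC3 cells. Of these, 4 were called higher and 8 lower in PC3 against androgen-treated cells, 6 and 8 against vehicle-treated cells, and 4 of 19 were higher with androgen and 0 lower. The shares of all genes were 24.0% and 22.1%, 22.2% and 21.0%, and 6.54% and 7.49%. Against androgen, 4 of 20 is thus near the share of all genes called higher. Of the genes called, 1 higher and 2 lower, 2 higher and 2 lower, and 1 higher with androgen had a mean under 3 CPM in the lower group and had to differ. GRHL2, an activator of epithelial junction genes, had 3.53 CPM in PC3, 174 CPM with androgen and 118 CPM with vehicle (log2 -5.63 and -5.08). KLF5, a factor of basal and intestinal epithelium, was higher in PC3 cells, with 222, 32.8 and 7.01 CPM (log2 2.75 and 4.96), and also higher with androgen than with vehicle (log2 2.19, SE 0.11, adjusted p = 1.69e-09). SNAI2, a repressor of the Snail family, had 10.8 CPM in PC3, 8.72 CPM with androgen and 0.206 CPM with vehicle (2 to 6 counts), and it passed the filter with androgen through the androgen-treated libraries alone. Whether any of these genes acts on the desmosome members here was not tested.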

How the data were processed

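RNA of 9 libraries, 3 per group, was analysed. The authors trimmed reads with cutadapt, aligned them to GRCh38 with STAR, removed duplicates with UMI-tools and mapped them again. The submitters' processing notes give cutadapt 4.1, STAR 2.7.7a and UMI-tools 1.1.2. The authors deposited counts, whole numbers of reads per gene without normalization, and all 253944 values equalled the forward-strand column of STAR (the reverse strand held 2.33% to 3.06% of the reads on genes). Between 20.3% and 25.4% of reads were not counted on a gene, and 0 columns were left out.

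Genes with more than 3 CPM in at least 3 libraries were tested with TMM factors and the quasi-likelihood F test of edgeR 4.0.16 (R 4.3.3), each comparison on its own 6 libraries, with Benjamini-Hochberg adjustment over all genes. The SE of a log2 difference was derived from the test, as its absolute value divided by the square root of the F statistic. The study used a likelihood ratio test with a batch term, but the batches are not named. Limits from a count of 0 were taken as 3 counts and cover counting error only.

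The members and lists were chosen with earlier results of these data known. Of each list, at most 5 genes tested in all comparisons were named, those called most often and then with the largest mean absolute log2 difference. Some genes that this rule covers are not reported here. Libraries with the same replicate number deviated together from their group means in LNCaP cells (0.156, 0.236 and 0.210 over 10032 genes, against -0.266 to 0.0998 for different numbers). The numbers were taken to pair them in the alternative with a replicate block, whereas the main tests were unpaired. The pairing rests on the counts and not on a label. This pairing is uncertain, since PC3 replicate 3 and androgen-treated replicate 1, of different numbers, correlated at 0.220. Deviations within a group also cancel out, so these correlations are not independent of each other.

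Alternatives were DESeq2 1.42.0 (size factors and Wald test), the likelihood ratio test, a replicate block, no filter, the adjusted p alone, unstranded counts, all 9 libraries in a fit, leaving out each library and, for shares, other lengths. Tested on simulated data, the main test recovered 195 of 200 changed genes with 0 false calls in each comparison. There all genes had the same small spread, and the changed genes, as many up as down, differed by more than the 2-fold limit. The simulation therefore does not show how the test performs on genes as variable as PKP1, near the 2-fold limit, or where many genes differ.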

Additional observations from a re-analysis of the deposited data

How the results depend on the processing

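No member changed direction in 364 member-level alternatives, and 356 kept their side of the threshold. The other 8 passed with the adjusted p-value alone, which drops the 2-fold limit (PERP in PC3 against vehicle-treated cells, and 7 members with androgen). Members called stayed at 9 and 8 in the comparisons with PC3 cells under DESeq2, the likelihood ratio test, no filter, unstranded counts, all 9 libraries in a fit and leaving out any library, except that the adjusted p alone gave 9 in place of 8. With androgen the count of 0 became 1 without the filter (PKP1) and 7 with the adjusted p alone. With the replicate number as a block, 9, 8 and 0 members and 5756, 5495 and 1638 genes were called, against 5773, 5485 and 1641 without it. No member's call at the 2-fold limit changed, and by the adjusted p alone DSC3 with androgen went from 0.0811 to 0.0136. For PC3 and LNCaP libraries the numbers gave no sign of pairing (correlations of -0.061, 0.053 and -0.195 with androgen, and 0.082, -0.201 and -0.020 with vehicle). Leaving out a library gave 5717 to 5830, 5415 to 5616 and 1601 to 1686 genes. Without the filter 9147, 8713 and 2941 genes were called, since more genes were tested, and with the adjusted p alone 10530, 10577 and 8763. Counts not divided by length gave PKP1 89.6% of plakophilin counts in PC3 cells, PKP3 5.58%, 91.3% and 93.0% in PC3, androgen- and vehicle-treated cells, and PKP2 7.05% and 6.24% in the LNCaP groups. Dividing by the union of annotated exons, chosen after seeing the data, gave PKP2 2.85%, 2.74% and 2.40% in the same order of groups, and PKP3 96.2% and 97.1% in the LNCaP groups. The depth limits PKP1 in LNCaP cells (4 to 120 counts) and DSG3 (0 or 1 count). TMM and size factors would both miss a shift shared by most genes.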
